A study of Mus musculus with 23 samples.

Results

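The genes described here are 32 mouse genes of amino acid and other metabolism that are active in liver, read in RNA-seq of whole embryos at E13.5. Hpd, Aldh8a1, Mtarc1, Bhmt and Gckr head the list and were chosen by measured values, their fall in embryos without Zfp57 in these same counts. The other 27 were listed by function, with earlier results of these data known. A listed gene was kept where it averaged at least 0.5 CPM (its counts with each library scaled to a total of 1000000) in the control embryos of both sexes. 22 of the 32 listed genes passed, out of 26183 genes in the tables. Of those 22, 5 are the genes that head the list and 17 are others. The lowest that passed were Fbp1 (0.885 CPM in females and 1.06 in males) and Hal (1.03 and 1.00). Agxt fell just outside, with 0.473 CPM in females and 0.597 in males.

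Hepatocytes break down surplus amino acids, pass the freed nitrogen to the urea cycle, recycle homocysteine and steer glucose between storage and use. The fetal liver of the mouse is at this stage also the main site of red cell formation, and its hepatocytes, which already secrete albumin (Alb) and alpha-fetoprotein (Afp), take up most enzymes of adult metabolism only later. The level of such a gene in RNA of a whole embryo therefore depends both on how much of the embryo is liver and on how active the gene is in it. In bulk samples, fewer cells of a type and less RNA per cell cannot be told apart.

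Zfp57 encodes a zinc finger protein that maintains DNA methylation at imprinted regions. Embryos came from 129 mothers and DBA* fathers, the latter carriers of the deleted Zfp57 allele backcrossed to DBA/2J. M+Z+ embryos (6 female, 4 male) had Zfp57 in oocyte and embryo. M-Z+ embryos (3 and 3) are Zfp57-/+ and lacked Zfp57 from the oocyte, and M-Z- embryos (4 and 3) are Zfp57-/- and lacked both. The sources describe the M+Z+ embryos in places as wild type and in places as heterozygous, and this was not settled here. The paper numbers the M+Z+ embryos in a primed and an unprimed series, and the other genotypes continue the unprimed numbers. What sets the series apart is not stated. M-Z+ and M-Z- embryos are offspring of Zfp57-/- mothers, so effects of the mother's genotype, litter and missing oocyte Zfp57 cannot be told apart. Each library is 1 embryo. Litters are not given in the labels, so p-values measure the spread between these embryos.

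Zfp57, on the deposited counts, had a female mean of 66.9 ± 17.04 CPM (SD, n = 6) in M+Z+, 71.4 ± 6.28 (n = 3) in M-Z+ and 33.05 ± 0.856 (n = 4) in M-Z- embryos. In males it averaged 76.5 ± 9.90 (n = 4), 70.7 ± 3.78 (n = 3) and 29.7 ± 5.03 CPM (n = 3). It fell in M-Z- against M+Z+ embryos of both sexes (log2 change -1.02, adjusted p = 0.000399, and -1.33, adjusted p = 4.69e-05). Counts are per gene, so they do not show whether the reads left in M-Z- embryos lie outside the deleted part of Zfp57. Total counts were 15.2 to 24.1 M per embryo. 3 counts, the limit that a count of 0 allows, correspond to 0.125 to 0.198 CPM. Male M-Z- replicate 2 stood apart from its group, with a chi-square per degree of freedom over genes of 36.6 and 47.7 against the other two embryos and of 17.7 between these others. Its embryonic globin Hbb-y was at 21684 CPM, against 7340.05 and 2938 in the other two. Alb was at 542 to 2933 CPM and Afp at 909 to 3229 CPM in the 23 embryos, so liver RNA was present in each.

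Hpd (chr5:123621816-123632732 in mm9, minus strand) makes homogentisate in tyrosine breakdown. Its CPM in female M+Z+ embryos was 1.72 at the lowest, 2.82 at the median and 4.59 at the highest. It was 2.02, 2.42 and 0.864 in female M-Z+ and 0.489, 0.473, 0.285 and 0.643 in female M-Z- embryos. Male Hpd was 2.37, 2.20, 4.53 and 3.40 in M+Z+, 3.45, 3.17 and 2.45 in M-Z+, and 0.441, 0.183 and 0.798 in M-Z- embryos. Every M-Z- embryo was below every other embryo of its sex, while the M-Z+ values overlapped those of M+Z+.

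Aldh8a1 (chr10:21097106-21116384, plus strand) encodes an aldehyde dehydrogenase of tryptophan breakdown along the kynurenine route. In females its CPM ran from 1.23 through a median of 2.26 to 4.96 in M+Z+, was 1.23, 3.05 and 1.84 in M-Z+, and 0.587, 0.315, 0.228 and 0.297 in M-Z- embryos. In males it was 2.99, 2.51, 4.82 and 2.59 in M+Z+, 2.67, 2.11 and 2.21 in M-Z+, and 0.252, 0.122 and 0.798 in M-Z- embryos. Again the M-Z- embryos lay under all others of their sex, and replicate 2 of the males was under the 0.183 CPM that 3 counts make in it.

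Mtarc1 (chr1:186610646-186635179, minus strand) encodes a molybdenum enzyme of mitochondria that reduces N-hydroxylated compounds. Its CPM in female M+Z+ embryos had a lowest value of 1.46, a median of 2.65 and a highest value of 4.70. In female M-Z+ embryos it was 1.91, 2.65 and 0.973, and in M-Z- embryos 0.196, 0.368, 0.285 and 0.593. In males the values were 2.62, 2.27, 3.60 and 2.36 in M+Z+, 2.93, 1.52 and 1.92 in M-Z+, and 0.315, 0.183 and 0.675 in M-Z- embryos. The order of the genotypes was as for Hpd, with no overlap of M-Z- and the rest.

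Bhmt (chr13:94386846-94407713, minus strand) moves a methyl group from betaine to homocysteine and was the most abundant of the 5 per length, at 16.8 TPM (reads per exon length, scaled to the same sum in each embryo) over the 10 M+Z+ embryos. In CPM, female M+Z+ embryos gave 8.39 at the lowest, 11.6 at the median and 28.9 at the highest. Female M-Z+ embryos gave 11.7, 14.0 and 3.46, and M-Z- embryos 4.70, 2.84, 1.20 and 4.80. Male embryos gave 14.0, 14.3, 22.7 and 15.2 in M+Z+, 12.5, 14.1 and 10.1 in M-Z+, and 2.39, 0.672 and 6.07 in M-Z-. M-Z- lay below M+Z+ in both sexes, but a female M-Z+ embryo (replicate 3) lay among the female M-Z- values.

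Gckr (chr5:31599936-31629675, plus strand) encodes the protein that holds glucokinase inactive in the nucleus, so it is a regulator rather than an enzyme. Its CPM was 2.36, 2.82 and 4.64 at the lowest, median and highest in female M+Z+, 2.19, 4.78 and 1.46 in M-Z+, and 1.32, 0.841, 0.856 and 0.890 in M-Z- embryos. In males it was 3.03, 2.57, 3.25 and 3.75 in M+Z+, 3.45, 3.63 and 3.67 in M-Z+, and 1.26, 0.795 and 1.72 in M-Z- embryos. Its M-Z- embryos were also the lowest of each sex, by a smaller factor than for Hpd, Aldh8a1 or Mtarc1.

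**Figure D1:**
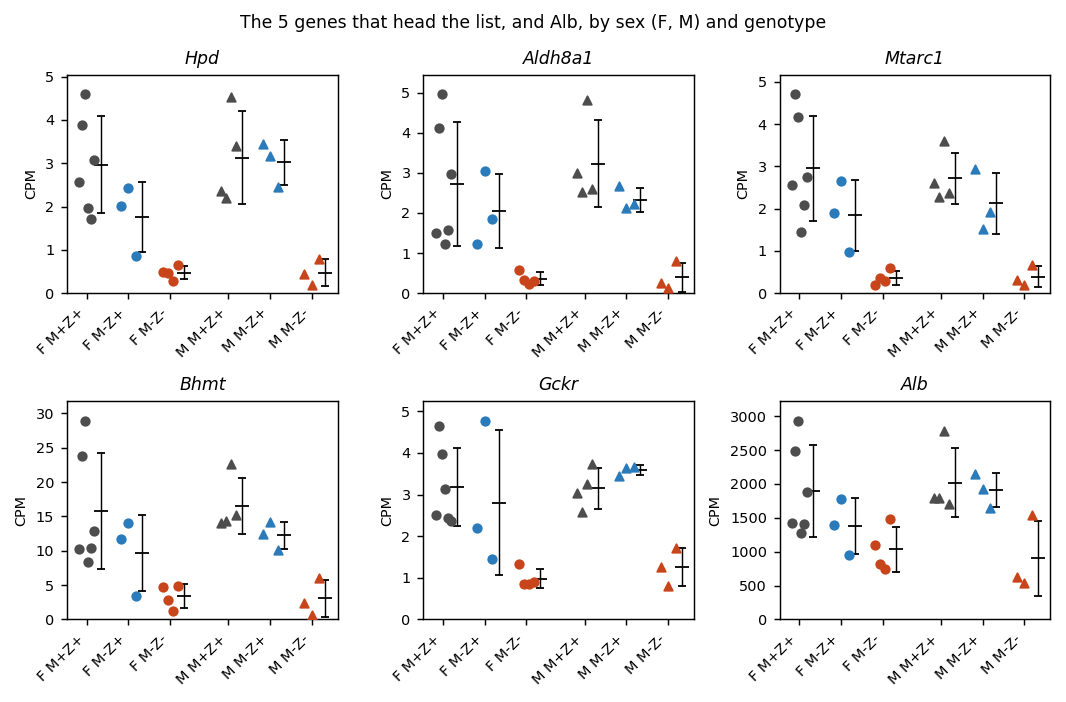
CPM (linear axis from 0) of Hpd, Aldh8a1, Mtarc1, Bhmt, Gckr and, for comparison, Alb in each embryo, with circles for females and triangles for males. Black dashes with bars are the mean ± SD of each sex and genotype. For the 5 enzyme list genes the M-Z- points lie below all M+Z+ points of the same sex, whereas for Alb 1 female M-Z- embryo (1477 CPM) lies within the M+Z+ range.

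The log2 changes of these 5 genes, from a fit of edgeR over all genes, are given as descriptions with no test, because they chose the genes. In M-Z- against M+Z+ females they were -2.61 ± 0.37 (SE) for Hpd, -2.88 ± 0.48 for Aldh8a1, -2.9993 ± 0.42 for Mtarc1, -2.20 ± 0.44 for Bhmt and -1.69 ± 0.33 for Gckr. In males they were -2.66 ± 0.40, -2.99 ± 0.44, -2.74 ± 0.40, -2.41 ± 0.41 and -1.29 ± 0.25 in the same order. Without male M-Z- replicate 2 these became -2.31, -2.60, -2.44, -1.96 and -1.08, and without replicate 3 they became -3.24, -4.01, -3.35, -3.38 and -1.56. In M-Z+ against the same M+Z+ embryos the changes ran from -0.76 to -0.19 in females and from -0.49 to 0.16 in males. M-Z- embryos set against M-Z+ gave -2.46 to -1.49 in females and -2.60 to -1.45 in males. All 5 had M-Z- below M+Z+ without overlap in each sex, where 2.05% of 16871 genes in females and 6.36% of 16664 in males had it, and nothing is read from this since the contrast chose them.

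The promoters of these 5 genes are shown, with that of Alb beside them as a gene of hepatocytes, and since the genes were chosen by their fall, nothing is read from a shared one. The windows run from 250 bases before to 50 after the start in RefSeq on GRCm38.p6, a later build than the mm9 of the counts. They are chr5:123182674-123182973 (minus) for Hpd, chr10:21377050-21377349 (plus) for Aldh8a1, chr1:184811251-184811550 (minus) for Mtarc1, chr13:93637709-93638008 (minus) for Bhmt, chr5:31297313-31297612 (plus) for Gckr and chr5:90460620-90460919 (plus) for Alb. Capitals mark a match, on either strand, to the TATA box letters TATAAA, to GTTAAT (part of the letters bound by HNF1), to CAAAGT (part of those bound by HNF4), to the CCAAT box or to the GC box GGGCGG.
Hpd: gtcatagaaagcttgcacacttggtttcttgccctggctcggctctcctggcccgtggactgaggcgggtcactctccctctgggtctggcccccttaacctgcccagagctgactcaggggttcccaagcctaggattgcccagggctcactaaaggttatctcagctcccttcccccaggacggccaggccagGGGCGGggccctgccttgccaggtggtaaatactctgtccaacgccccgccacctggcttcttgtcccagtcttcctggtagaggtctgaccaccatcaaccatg
Aldh8a1: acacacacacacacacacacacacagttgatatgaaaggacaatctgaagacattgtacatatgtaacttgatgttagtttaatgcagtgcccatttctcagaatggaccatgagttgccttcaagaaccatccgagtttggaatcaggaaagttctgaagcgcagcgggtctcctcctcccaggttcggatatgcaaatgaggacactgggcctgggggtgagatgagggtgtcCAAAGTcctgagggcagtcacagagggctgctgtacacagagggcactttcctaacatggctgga
Mtarc1: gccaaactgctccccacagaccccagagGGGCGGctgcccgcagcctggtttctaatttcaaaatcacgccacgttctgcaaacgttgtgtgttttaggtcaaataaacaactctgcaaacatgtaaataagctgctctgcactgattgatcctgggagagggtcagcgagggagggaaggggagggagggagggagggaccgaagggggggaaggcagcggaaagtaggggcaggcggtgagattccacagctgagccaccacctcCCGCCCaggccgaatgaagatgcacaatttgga
Bhmt: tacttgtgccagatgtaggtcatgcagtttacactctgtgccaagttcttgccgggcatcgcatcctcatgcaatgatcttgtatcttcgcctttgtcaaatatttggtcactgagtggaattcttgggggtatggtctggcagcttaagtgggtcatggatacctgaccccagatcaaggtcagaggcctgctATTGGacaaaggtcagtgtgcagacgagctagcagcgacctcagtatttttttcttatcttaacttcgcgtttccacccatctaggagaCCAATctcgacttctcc
Gckr: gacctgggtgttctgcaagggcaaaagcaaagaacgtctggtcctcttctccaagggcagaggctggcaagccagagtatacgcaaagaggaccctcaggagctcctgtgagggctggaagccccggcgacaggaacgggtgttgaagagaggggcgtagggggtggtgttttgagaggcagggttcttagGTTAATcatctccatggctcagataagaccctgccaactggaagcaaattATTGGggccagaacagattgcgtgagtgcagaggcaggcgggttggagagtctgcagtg
Alb: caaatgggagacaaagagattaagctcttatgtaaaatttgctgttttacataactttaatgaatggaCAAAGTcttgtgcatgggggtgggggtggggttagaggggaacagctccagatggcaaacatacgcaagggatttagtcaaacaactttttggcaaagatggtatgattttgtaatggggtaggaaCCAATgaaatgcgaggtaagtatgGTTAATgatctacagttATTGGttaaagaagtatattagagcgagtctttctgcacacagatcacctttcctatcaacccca

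No searched motif was in all 5 windows. Positions give the first base of a match relative to the start. The TATA box and the longer letters below were planned, and the other short ones were added after a first search. Hpd held GGGCGG at -55, and Mtarc1 held it at -222 and 18. Aldh8a1 held CAAAGT at -15. Bhmt held CCAAT at -56 and 34. Gckr held GTTAAT at -59 and a CCAAT box at -9. Alb held GTTAAT at -32, the HNF4 part at -182 and a CCAAT box at -56 and -15. Of 32851 promoters of this length in the table, 35.7% held the GC box, 37.4% the CCAAT box, 14.4% the HNF4 part, 7.10% the HNF1 part and 13.6% the TATA box. The whole HNF1 letters (in 0.00913% of promoters), those of HNF4 (CAAAGTCCA, in 0.475%), of CEBP (TTGCGCAA, in 0.183%) and of FOXA (TGTTTAC, in 3.65%) were in none of the windows of the 17 genes that passed and had a window. Among those 17 genes, the CCAAT box was in 11, the GC box in 8, the TATA box in 3 (Hgd, Hal and Pklr), the HNF4 part in 3 (Aldh8a1, Gnmt and Pklr) and the HNF1 part in 2 (Gckr and Sult1a1).

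The 17 other genes were listed by function. Earlier results of these data were known by then, so their shares beside those of all genes are a description. Calls needed an adjusted p under 0.05, over every gene tested, with a log2 change of 0.5 or more in size, and comparisons within a sex share their M+Z+ embryos. In M-Z- against M+Z+ females, Ass1 and Cps1 fell, which is 2 of 17, where 0.279% of 16871 genes were called lower. In males Aass fell, 1 of 17, where 0.126% of 16664 genes were. None of the 17 was called higher in either sex, where 0.285% of all genes in females and 0.264% in males were. 15 of 17 changes were negative in each sex, with a median of -0.47 in females and -0.75 in males, while 51.2% and 49.6% of all genes were negative around medians of -0.00 and 0.00. At an unadjusted p below 0.05 there were 6 of 17 in females and 10 of 17 in males, where 15.5% and 17.0% of all genes were. With both sexes in 1 fit, 6 of 17 fell (Cps1, Ass1, Aass, Otc, Hgd and Sult1a1), where 1.24% of 17139 genes were called lower. DESeq2 called 3 lower in females (Cps1, Ass1 and Otc, 0.533% of all genes) and 6 in males (Cps1, Ass1, Otc, Aass, Hgd and Sult1a1, 0.384%).

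**Figure D2:**
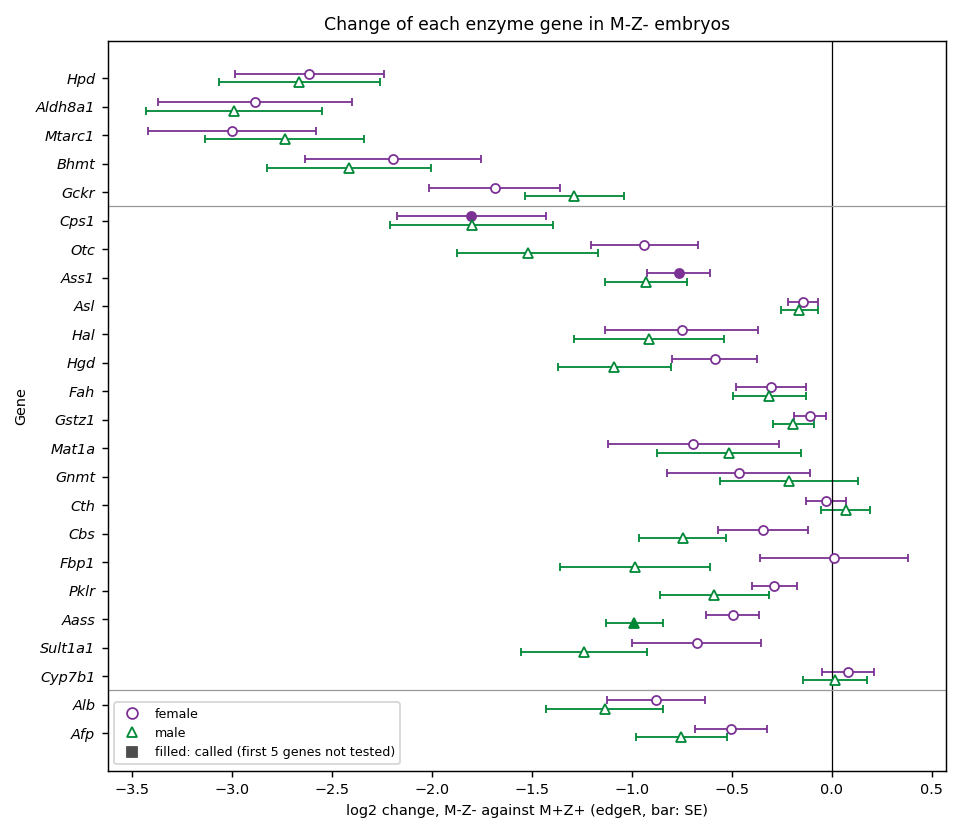
Log2 change ± SE (edgeR) of the 22 enzyme genes, Alb and Afp in M-Z- against M+Z+ embryos, in females (circles) and males (triangles). Filled symbols were called, and the first 5 genes were not tested. Most points lie left of 0, with the first 5 genes between -2.9993 and -1.29, Cps1 at -1.80 in both sexes, and Cth and Cyp7b1 close to 0.

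Of the urea cycle, 4 genes are described. Cps1 (chr1:67169601-67277841), which makes the carbamoyl phosphate that enters the cycle, had a CPM in female M+Z+ embryos of 7.22 at the lowest, 13.9 at the median and 28.8 at the highest. It was 10.9, 11.9 and 4.38 in female M-Z+ and 3.82, 4.05, 4.11 and 5.59 in M-Z- embryos. In males Cps1 was 12.0, 13.3, 22.3 and 12.7 in M+Z+, 14.4, 12.1 and 9.26 in M-Z+, and 1.57, 2.69 and 8.40 in M-Z- embryos. The M-Z- values were below the M+Z+ values without overlap in both sexes. The log2 change was -1.80 ± 0.37 (adjusted p = 0.0212) in females and -1.80 ± 0.41 (adjusted p = 0.087) in males. Without male M-Z- replicate 3 the male change was -2.75 and called (adjusted p = 0.000524), and without replicate 1 it was -1.40.

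Ass1 (chr2:31325790-31376190) joins citrulline to aspartate. Its CPM in female M+Z+ embryos ran from 14.8 through 19.3 to 27.0, against 17.8, 17.95 and 13.9 in M-Z+ and 11.8, 10.9, 12.3 and 12.1 in M-Z- embryos. In males Ass1 was 19.5, 20.8, 29.6 and 15.2 in M+Z+, 18.1, 18.6 and 17.6 in M-Z+, and 8.57, 10.3 and 13.7 in M-Z- embryos. The 4 female M-Z- embryos were close to each other and under every other female. The changes were -0.77 ± 0.16 (adjusted p = 0.0206) and -0.93 ± 0.21 (adjusted p = 0.0838). With each embryo left out in turn, the female changes ran from -1.95 to -1.53 for Cps1 and from -0.84 to -0.66 for Ass1, and some fits lost the calls. None of the 17 genes was called without M-Z- replicate 1, 2 or 3, where 0.208%, 0.0951% and 0.131% of all genes were called lower. Cps1 alone was called without M+Z+ replicate 6 (0.196% of all genes). Without M-Z- replicate 4 there were 3 (Cps1, Aass and Hgd, with 0.279% of all genes).

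Otc (chrX:9829431-9898150), which makes citrulline, was at 4.31 to 11.01 CPM in female M+Z+ embryos, 5.89, 6.44 and 3.94 in M-Z+, and 3.28, 3.42, 2.80 and 5.29 in M-Z-. In males Otc was 8.68, 7.71, 12.3 and 6.51 in M+Z+, 6.76, 6.53 and 5.59 in M-Z+, and 1.89, 1.47 and 5.64 in M-Z- embryos. The groups overlapped in females and not in males, and neither change was called (-0.94, adjusted p = 0.101, and -1.52, adjusted p = 0.093). Without male M-Z- replicate 3 the male change was -2.33 and called (adjusted p = 0.000518). Asl, which splits argininosuccinate, averaged 19.5 ± 1.45 and 17.7 ± 1.36 CPM in females and 18.2 ± 1.14 and 15.9 ± 1.44 in males, with changes of -0.15 and -0.16 that were not called. Among these 4 genes the changes ran from -1.80 for Cps1 to -0.15 for Asl in females, and from -1.80 to -0.16 in males, with no test of the difference between genes.

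Downstream of Hpd in tyrosine breakdown, Hgd opens the ring of homogentisate. Its CPM was 4.20 to 6.79 in female M+Z+, 5.78, 7.02 and 4.43 in M-Z+, and 2.79, 2.58, 3.31 and 5.59 in M-Z- embryos. In males Hgd was 5.69, 5.45, 6.28 and 4.73 in M+Z+, 5.66, 5.61 and 4.89 in M-Z+, and 1.89, 1.41 and 4.36 in M-Z- embryos. Its changes were -0.59 (adjusted p = 0.195) and -1.09 (adjusted p = 0.117), the latter becoming -1.69 and called without M-Z- replicate 3 (adjusted p = 0.000838). The next enzymes were Gstz1 and Fah. Gstz1, the isomerase of maleylacetoacetate, averaged 44.8 ± 3.29 and 41.6 ± 3.66 CPM in M+Z+ and M-Z- females and 49.5 ± 5.08 and 42.2 ± 6.31 in males. Fah, the last enzyme of the path, averaged 8.66 ± 1.42 and 7.01 ± 1.79 CPM in females and 9.14 ± 1.67 and 7.13 ± 1.59 in males. Neither was called.

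Aass (chr6:23022173-23082986) carries out the first steps of lysine breakdown in mitochondria. In females its CPM ran from 14.0 through 18.4 to 20.3 in M+Z+, was 19.5, 16.7 and 15.5 in M-Z+, and 12.9, 11.8, 9.71 and 16.4 in M-Z- embryos. In males Aass was 19.6, 17.2, 19.7 and 18.1 in M+Z+, 20.3, 17.4 and 19.3 in M-Z+, and 10.5, 6.36 and 10.9 in M-Z- embryos. The male M-Z- embryos were well under all other males, which spread little. The change was -0.99 ± 0.14 in males (adjusted p = 0.00563) and -0.50 ± 0.13 in females (adjusted p = 0.0783). It was also called in male M-Z- against M-Z+ embryos (-0.99, adjusted p = 0.0177). In males, Aass remained called in M-Z- against M+Z+ with each embryo left out in turn. Without M-Z- replicate 3, which had the most Alb of its group, 9 of the 17 were called (Aass, Ass1, Cbs, Cps1, Hgd, Mat1a, Otc, Pklr and Sult1a1), and the share of all genes called lower was then 2.9% in place of 0.126%. Without M+Z+ replicate 4 there were 2 (Aass and Ass1), with 0.181% of all genes called lower. Hal, which removes ammonia from histidine, averaged 1.03 ± 0.530 and 0.601 ± 0.238 CPM in M+Z+ and M-Z- females and 1.00 ± 0.0724 and 0.516 ± 0.183 in males, and was not called.

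**Figure D3:**
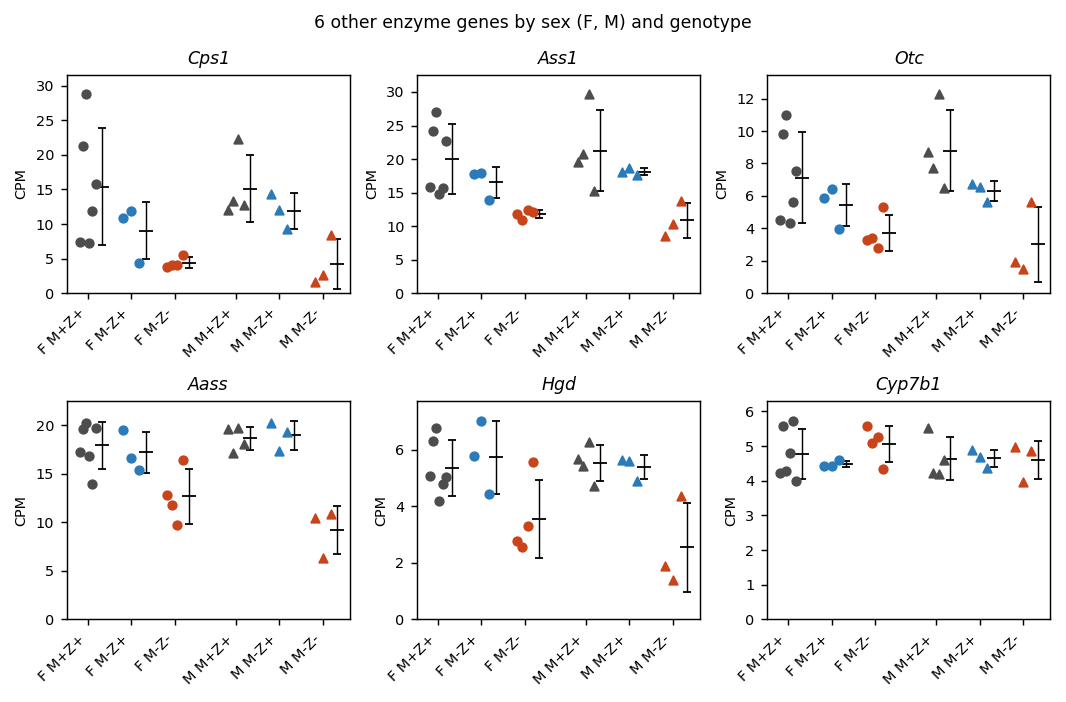
CPM (linear axis from 0) of Cps1, Ass1, Otc, Aass, Hgd and Cyp7b1 in each embryo, by sex (circles female, triangles male) and genotype, with mean ± SD beside the points. Male M-Z- embryos lie below male M+Z+ embryos for Cps1, Ass1, Otc, Aass and Hgd, while the Cyp7b1 groups overlap.

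Around Bhmt, 4 genes of methionine and homocysteine handling were listed by function, and their difference from Bhmt was not tested. Mat1a, which makes S-adenosylmethionine, averaged 3.02 ± 1.61 and 1.84 ± 1.08 CPM in M+Z+ and M-Z- females (-0.69, adjusted p = 0.467) and 2.55 ± 0.636 and 1.74 ± 1.15 in males (-0.51, adjusted p = 0.478). Gnmt, which spends it on glycine, averaged 2.01 ± 0.983 and 1.44 ± 0.288 CPM in females and 1.996 ± 0.615 and 1.69 ± 0.707 in males. Cbs, which turns homocysteine into cystathionine, averaged 5.41 ± 1.61 and 4.25 ± 0.867 CPM in females and 6.63 ± 1.63 and 3.87 ± 1.01 in males (-0.75, adjusted p = 0.146). Cth, which makes cysteine from cystathionine, stayed at 10.7 ± 1.21 and 10.5 ± 1.00 CPM in females and 11.1 ± 0.813 and 11.4 ± 2.12 in males, with changes of -0.03 and 0.07. None of these 4 was called. Gnmt and Cbs lie on chr17, as Zfp57 does, and whether M-Z- embryos carry other strain alleles there was not tested.

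Among the glucose genes, Pklr, the pyruvate kinase of liver and red cells, had the highest level per length of the 22, at 71.0 TPM in M+Z+ embryos, ahead of Gstz1 at 46.9 and Ass1 at 27.3. Its CPM was 88.2 ± 11.7 in female M+Z+ and 72.3 ± 11.2 in M-Z- embryos (-0.29, adjusted p = 0.223). In male M-Z- embryos Pklr was 70.0, 25.4 and 94.5 CPM, against 96.3 ± 5.48 in M+Z+ (-0.59, adjusted p = 0.293), so the library that stood apart had the lowest value. Fbp1, which works in the making of glucose, was at 0.885 ± 0.291 and 0.906 ± 0.498 CPM in females and 1.06 ± 0.379 and 0.515 ± 0.139 in males (-0.98, adjusted p = 0.22). Sult1a1, which adds sulfate to phenols, was at 1.91 ± 0.761 and 1.18 ± 0.429 CPM in females (-0.68, adjusted p = 0.325) and 2.20 ± 0.638 and 0.906 ± 0.287 in males (-1.24, adjusted p = 0.11). Cyp7b1, an oxysterol hydroxylase that tissues other than liver also express, was at 4.77 ± 0.733 and 5.07 ± 0.519 CPM in females and 4.64 ± 0.622 and 4.60 ± 0.545 in males, with changes of 0.08 and 0.02.

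10 listed genes did not pass the filter and were not tested. Agxt, of glyoxylate removal, had 0.124 and 0.228 CPM in female and male M-Z- embryos. Baat, which conjugates bile acids, averaged 0.355 and 0.296 CPM in female and male M+Z+ embryos. Acsm1, a medium-chain acyl-CoA synthetase, averaged 0.350 and 0.249. Hao1, which makes glyoxylate, averaged 0.188 and 0.258. Tdo2, which opens the tryptophan ring, averaged 0.215 and 0.161, and Pck1, of glucose synthesis, 0.199 and 0.200. Uox, of urate breakdown, averaged 0.106 and 0.0789 CPM, and Tat, the first enzyme of tyrosine breakdown, 0.0454 and 0.0741. Cyp2e1 was at 0 in 19 of 23 embryos. G6pc, which releases free glucose, had no count in any of the 23 embryos, which allows up to 0.198 CPM in the shallowest library.

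**Figure D4:**
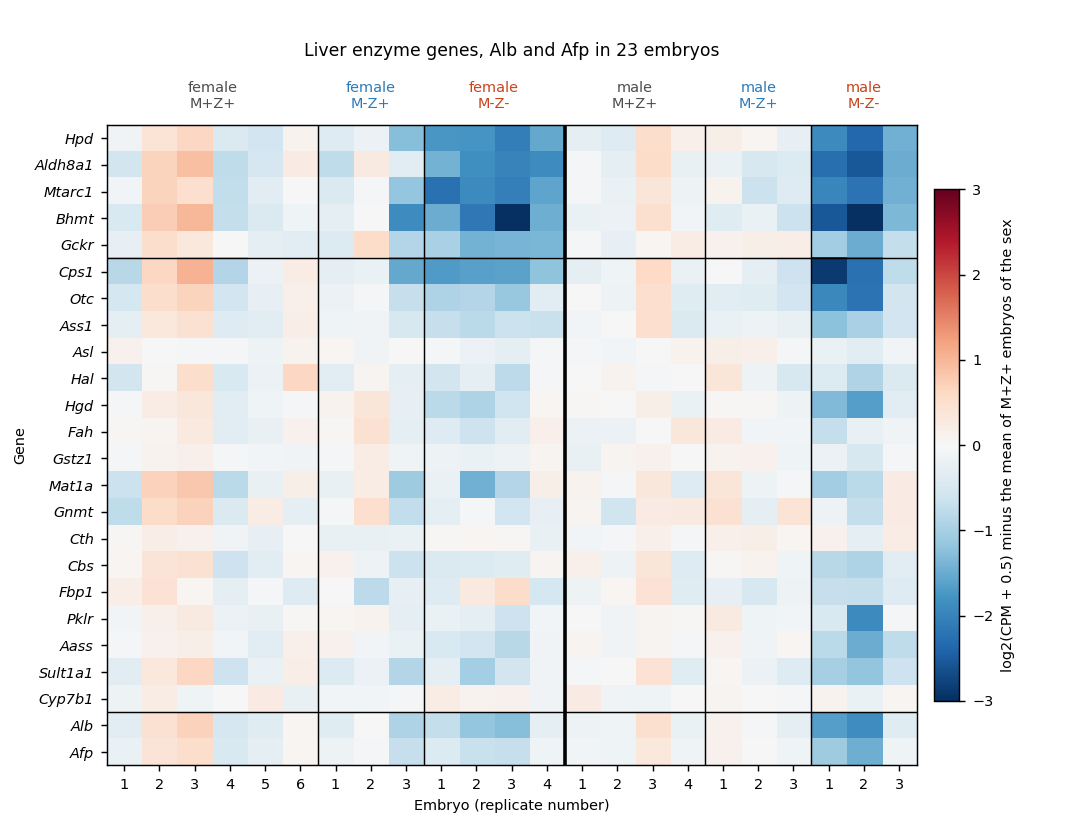
Colour shows log2(CPM + 0.5) of each gene in each embryo minus the M+Z+ mean of that sex, from blue (lower) through white to red (higher) and held at the end colours beyond the scale, for the 22 enzyme genes in the order of the list, then Alb and Afp. Columns are embryos by sex and genotype. The first 5 rows are blue in all 7 M-Z- embryos, and the columns of female M-Z- replicate 4 and male M-Z- replicate 3 are paler than those of their group in most of the other rows.

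M-Z+ embryos lacked Zfp57 from the oocyte and carry the deleted allele on 1 chromosome. None of the 17 was called in M-Z+ against M+Z+ embryos by edgeR or DESeq2 in either sex, where 0.0593% of genes in females and 0.048% in males were called in either direction. At an unadjusted p below 0.05 there was 1 of 17 in females (Cth) and 0 in males, where 6.64% and 7.86% of all genes were. The medians were -0.25 and -0.03. No member had all M-Z+ values below all M+Z+ values, where 1.03% of genes in females and 5.06% in males did. Female M-Z+ replicate 3 was the lowest of its group for Hpd, Mtarc1, Bhmt, Gckr, Cps1, Otc and Ass1, and it had 954 CPM of Alb against 1399 and 1781 in the other two.

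In M-Z- against M-Z+ embryos, which share a mother's genotype, Aass was called in males, where 0.066% of genes were called lower. None was called there without M-Z+ replicate 1, 2 or 3, where 0.0415%, 0.0414% and 0.0415% of all genes were called lower. Without M-Z- replicate 3, 4 were called (Aass, Cps1, Hgd and Otc), where 1.61% of all genes were. In females none of the 17 was called by edgeR or DESeq2, where 0.0711% of genes were called lower. At an unadjusted p below 0.05 there were 4 (Hgd, Ass1, Aass and Cps1), beside 8.64% of all genes. In 1 fit of both sexes Aass (-0.66, adjusted p = 0.00571) and Hgd (-0.80, adjusted p = 0.0393) fell, where 0.303% of genes were called lower. Groups did not overlap for 1 of the 17 in females (Ass1) and for 8 in males (Cps1, Ass1, Asl, Hgd, Fah, Aass, Cbs and Sult1a1), beside 5.86% and 8.74% of all genes. In M-Z- against M+Z+ embryos this held for 2 of the 17 in females (Cps1 and Ass1) and 8 in males (Cps1, Otc, Ass1, Hgd, Aass, Hal, Fbp1 and Sult1a1), beside the 2.05% and 6.36% given above.

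Between male and female M+Z+ embryos, none of the 17 was called by edgeR or DESeq2 where 0.0817% of genes were called, and 0 had an unadjusted p below 0.05, where 4.92% of genes had. For the 5 genes that head the list, which were not chosen on sex, the log2 differences of female against male ran from -0.25 (Aldh8a1, adjusted p = 0.955) to 0.12 (Mtarc1, adjusted p = 0.979). Whether the genotype effect differed between the sexes was tested by an interaction term. 0 of the 17 were called for M-Z- or for M-Z+ by edgeR or by DESeq2, where 0.0% of genes were called in M-Z- and 0.0% in M-Z+ against M+Z+ embryos. At an unadjusted p below 0.05 there was 1 in each, Aass for M-Z- (male minus female -0.50 ± 0.21, adjusted p = 0.737) and Cth for M-Z+ (0.36 ± 0.16, adjusted p = 1), where 6.46% and 3.65% of all genes were.

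The level of the whole list in an embryo was taken as the mean log2(CPM + 0.5) over the 22 genes, given with no test since 5 of them were chosen by their fall. In female M+Z+ embryos it was 2.39 at the lowest and 3.24 at the highest. It was 2.62, 2.82 and 2.18 in female M-Z+ and 2.10, 1.97, 1.91 and 2.29 in M-Z- embryos, so the M-Z- embryos were under all M+Z+ females and overlapped the M-Z+ ones. In males it was 2.84, 2.76, 3.15 and 2.79 in M+Z+, 2.95, 2.76 and 2.6956 in M-Z+, and 1.83, 1.54 and 2.40 in M-Z- embryos. Over the 17 genes listed by function, female M-Z- embryos were at 2.46 to 2.79, which overlaps the 2.62 to 3.36 of M+Z+. Male M-Z- embryos were at 2.27, 2.06 and 2.83, below the 2.95 to 3.2997 of M+Z+.

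The enzymes were next set beside liver RNA as a whole. Alb in CPM was 1269.9 at the lowest, 1649 at the median and 2933 at the highest in female M+Z+ embryos, 1399, 1781 and 954 in M-Z+, and 1092, 814, 749 and 1477 in M-Z-. In males Alb was 1789, 1798, 2778 and 1709 in M+Z+, 2146, 1927 and 1643 in M-Z+, and 629, 542 and 1542 in M-Z- embryos. Its log2 change in M-Z- against M+Z+ was -0.88 (adjusted p = 0.0927) in females and -1.14 (adjusted p = 0.115) in males, and it was called with both sexes in 1 fit (-0.98, adjusted p = 0.00415). Afp changed by -0.50 (adjusted p = 0.191) and -0.75 (adjusted p = 0.154). With each embryo left out in turn, the male changes ran from -1.73 to -0.90 for Alb and from -1.20 to -0.53 for Afp. The female changes then ran from -1.11 to -0.71 for Alb and from -0.64 to -0.38 for Afp. Of 24 genes for proteins that liver secretes, 23 were tested and all 23 had a negative change in each sex, with medians of -0.71 and -0.86. In the single-sex fits 3 were called in females (Plg, Itih3 and Apob) and 1 in males (Vtn), beside 0.279% and 0.126% of all genes called lower. With both sexes in 1 fit, 17 of the 23 were called lower, beside 1.24% of all genes.

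The 5 genes that head the list were chosen by their fall in these counts, so their levels relative to Alb are a description from which nothing is read. Set against Alb, the summed CPM of Hpd, Aldh8a1, Mtarc1, Bhmt and Gckr was 12.7 to 16.5 per 1000 CPM of Alb in female M+Z+ embryos, 13.6, 15.1 and 9.005 in M-Z+, and 6.68, 5.94, 3.81 and 4.89 in M-Z-. In males it was 13.3 to 16.0 in M+Z+, 11.6, 12.7 and 12.4 in M-Z+, and 7.41, 3.61 and 6.52 in M-Z-. By gene, Hpd, Aldh8a1, Mtarc1 and Bhmt per Alb had M-Z- below M+Z+ without overlap in both sexes. Gckr per Alb did so in females and not in males, and Cps1 and Otc in males and not in females, while Ass1 and Aass overlapped in both sexes. Over all tested genes, 0.083% in females and 0.114% in males had counts per Alb below M+Z+ in every M-Z- embryo. The opposite order held for 9.15% and 64.2% of them, among which in males were Gstz1, Gnmt, Cth and Cyp7b1. Aass per 1000 Alb was 6.91 to 13.3 in female M+Z+ and 11.1 to 14.5 in M-Z- embryos.

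Alb in some M-Z- embryos lay within or near the M+Z+ range. Female M-Z- replicate 4 had 1477 CPM of Alb, above the 1269.9, 1403 and 1424 of M+Z+ replicates 4, 5 and 1. Of the genes listed by function, its Cps1 was 5.59 CPM, against 7.22, 11.9 and 7.35 in those 3. Its Aass was 16.4 CPM, within the 14.0 to 20.3 of M+Z+ embryos. Male M-Z- replicate 3 had 1542 CPM of Alb and a summed 6228 CPM of the secreted protein genes, both below the lowest male M+Z+ values of 1709 and 6528. Its mean log2(CPM + 0.5) of those genes was 6.41, against 6.397 to 6.95 in male M+Z+ embryos. Its Cps1 was 8.40 CPM and its Aass 10.9 CPM, each below all male M+Z+ embryos. The part of liver RNA in these values was not tested.

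**Figure D5:**
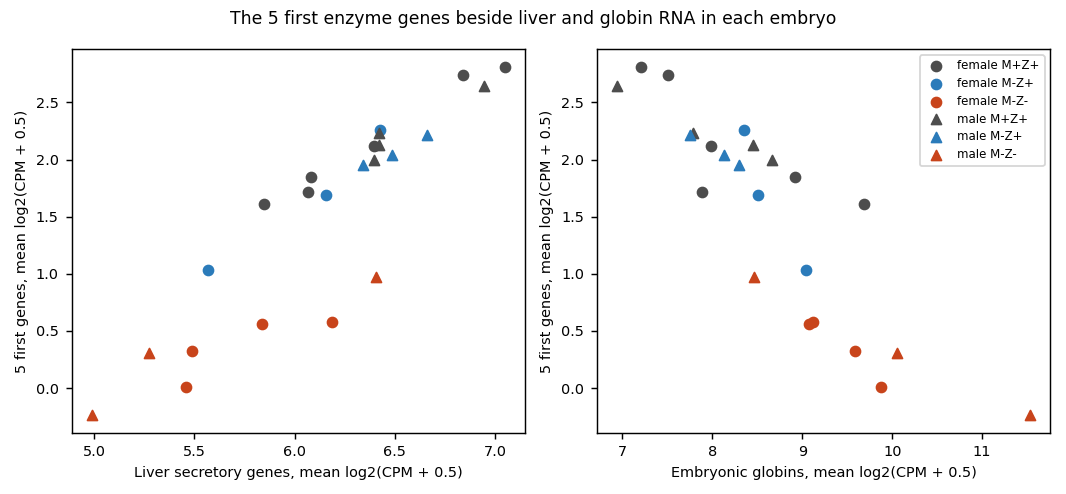
Mean log2(CPM + 0.5) of Hpd, Aldh8a1, Mtarc1, Bhmt and Gckr in each embryo (vertical axis) against the same mean of the liver secretory genes (left) and of the embryonic globins Hbb-y, Hbb-bh1 and Hba-x (right), coloured by genotype, with circles for females and triangles for males. The 7 M-Z- embryos, from -0.24 to 0.97, lie below the M+Z+ embryos, from 1.61 to 2.81.

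With the mean of the secreted protein genes as a covariate, the changes of the 5 genes in M-Z- against M+Z+ embryos ran from -2.15 (Mtarc1) to -1.05 (Bhmt) in females and from -1.78 (Aldh8a1) to -0.89 (Gckr) in males. The median of the 17 others moved to -0.01 and -0.25. Cps1 was the 1 gene of the 17 called in females (-0.76, adjusted p = 0.0234), where 0.237% of genes were called lower, and none was called in males, where 0.042% were. Ass1 was at -0.36 (adjusted p = 0.0692) in females and Aass at -0.71 (adjusted p = 0.267) in males in this fit.

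Counts scaled to the sum of the secreted protein genes gave -2.34 to -1.04 for the 5 genes in females and -2.17 to -0.38 in males. That scaling moved the median of all genes to 0.60 and 1.06. Under it, Cps1 fell in both sexes (-1.05, adjusted p = 0.0245, and -1.01, adjusted p = 0.00569), where 0.0711% and 0.126% of genes were called lower. In males Gstz1, Cth, Fah, Cyp7b1 and Asl were called higher, as were 88.1% of all genes. With that share called, the adjustment for many genes is slight in males. Nothing is therefore read from the male calls under this scaling, that of Cps1 included. Ass1 and Aass, called on the scale of all genes, were at -0.08 in females and 0.01 in males on this scale. Per 1000 Alb, Cps1 was 5.17 to 9.80 in female M+Z+ and 3.50, 4.97, 5.49 and 3.78 in M-Z- embryos, which overlap, and 6.71 to 8.03 and 2.5025, 4.96 and 5.45 in males, which do not.

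Red cell genes had changes of both signs. Of 18 listed, 17 were tested, 12 in females and 11 in males had a negative change in M-Z- against M+Z+ embryos, with medians of -0.39 and -0.26, and none was called in either sex. With both sexes in 1 fit, the adult globin genes Hbb-bt, Hbb-b2, Hbb-b1 and Hbb-bs were among those called lower, the first pair and the last pair with identical values, and 3 genes were called higher, beside 1.24% and 0.957% of all genes. The 3 higher were the embryonic globins of primitive red cells, picked out after their values were seen. The summed CPM of these, Hbb-y, Hbb-bh1 and Hba-x, was 1411 to 7482 in female M+Z+, 2930 to 3920 in M-Z+ and 4693 to 6797 in M-Z- embryos, and in males 1086 to 3964, 2048 to 3116, and 8294, 24454.5 and 3245. The M-Z- embryos lay within the M+Z+ range in females, and 1 of 3 did in males. With their mean as a covariate, a fit added after the data had been seen, the 5 genes were at -2.18 (Mtarc1) to -1.09 (Bhmt) in females and -1.95 (Aldh8a1) to -0.83 (Gckr) in males. In that fit none of the 17 was called by edgeR in either sex, where 0.0771% and 0.042% of genes were called lower, and their medians were -0.00 and -0.37. The parts of embryonic globin RNA and of liver secretory RNA in the changes of the 17 others were not tested apart.

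Marker genes of other tissues were summed in the same way. Of 6 yolk sac endoderm genes, 4 were in the tables, with a sum of 5.26 to 9.87 CPM in female M+Z+ and 3.996 to 6.38 in M-Z- embryos, and of 5.07 to 9.59 and 3.02 to 7.24 in males. Their medians of change were -0.51 and -0.52 with none called. The 8 kidney genes summed to 23.4 to 36.6 CPM over the 23 embryos, and the 7 intestine and pancreas genes to 4.78 to 11.4. The 5 genes of liver macrophages summed to 8.38 to 44.4 CPM, both ends in male M-Z- embryos. The 8 placenta genes summed to at most 0.612 CPM, with Prl2c2 at 0 throughout. Of these lists, 4 of 6 yolk sac, 5 of 8 kidney, 5 of 7 intestine and pancreas and 4 of 5 macrophage genes were tested in each sex, and 0 of 8 placenta genes. None of those tested was called in M-Z- against M+Z+ embryos by edgeR, and their part in the enzymes' change was not tested.

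Of 65 other metabolic enzymes and transporters of liver, listed with earlier results known, 56 were tested. Their medians of change in M-Z- against M+Z+ embryos were -0.11 in females and -0.17 in males. A negative change was seen in 43 of the 56 in females and 44 in males, where 51.2% and 49.6% of all genes had one. Uroc1, which follows Hal in histidine breakdown and is named after its values were seen, was the only gene called in females (-1.48 ± 0.33, adjusted p = 0.0337), and none was called in males (Uroc1 -1.68, adjusted p = 0.0598). The shares of all genes called lower were 0.279% and 0.126%. In 1 fit of both sexes 7 of 57 tested fell (Uroc1, Acsm3, Ftcd, Slc2a2, Bhmt2, Dmgdh and Kmo), beside 1.24% of all genes. Of the 3 most abundant, none was called in either sex, with Glud1 at 0.05 and -0.15, Oat at -0.07 and -0.10 and Slc38a4 at -0.06 and 0.00. Of 14 transcription factors of hepatocytes, 12 were tested and none was called, with medians of -0.02 and -0.27. Among them Prox1 was at 0.07 and -0.09, Hnf4a at -0.17 and -0.32, and Cebpa at 0.01 and -0.35.

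Reads over strain variants allowed an allelic test for Bhmt and Pklr only. The P-score, the paternal share of allele-assigned reads minus 0.5, was 0.5 for Bhmt in every embryo with more than 10 such reads, with 0 maternal and 452 paternal reads over the female M+Z+ embryos and 0 and 316 over the male ones. In M-Z- embryos Bhmt had 0 maternal and 57 paternal reads in females and 0 and 48 in males. The cross was made in 1 direction, so strain and parent of origin cannot be told apart. Whether the variants in Bhmt were called and its reads assigned correctly was not tested. For Pklr the P-score was 0.0939 ± 0.0242 in female M+Z+ and 0.0739 ± 0.0224 in M-Z- embryos (adjusted p = 0.95), and 0.0890 ± 0.0149 and 0.0552 ± 0.0166 in males (adjusted p = 0.755). Bhmt had 0 maternal reads in every group, which leaves its P-score at its limit, so nothing is read from its test. Pklr was not called for a shift by edgeR in either sex and had no unadjusted p below 0.05. Over all genes tested, 0.402% of 6468 in females and 2.54% of 6423 in males were called.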

How the data were processed

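RNA-seq was analysed from 23 whole E13.5 mouse embryos, 1 library each, grouped by the sex and genotype of their labels. The deposited gene tables hold raw read counts, which the authors made with Trim Galore, STAR (uniquely mapped reads, mm9) and featureCounts on the UCSC mm9 annotation, by strand, a read over several genes counting for each. No member overlapped another gene's exons on its strand. STAR 2.7.8a and Subread 2.0.1 are named in the submitters' processing notes. The deposited allelic counts came from variants called with GATK, a masked mm9, STAR and SNPsplit. Total counts were 15.2 to 24.1 M (median 17.4 M) and allele-assigned reads 2.46 to 3.94 M. Reads carry no molecular identifiers, so limits from counts cover counting error only. The exon lengths deposited with the counts were used for TPM. Columns headed WT were read as M+Z+. Some female allelic M+Z+ columns share their header with another column, and these were used without replicate numbers.

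Genotypes were compared in 1 fit per sex with edgeR 4.0.16 (glmQLFit and glmQLFTest, TMM, filterByExpr; limma 3.58.1, R 4.3.3). Calls needed an adjusted p under 0.05 (two-sided, by Benjamini-Hochberg across every gene tested) and a log2 change of 0.5 in size (0.3 between sexes, none for interactions, a P-score change of 0.1 for genes whose reads assigned to an allele averaged 20 or more over the embryos of a sex). DESeq2 1.42.0 was an alternative. On counts made by simulation for the female fit over 16871 genes, 100% of 4-fold and 93% of 2-fold changes were recovered. For the male fit over 16664 genes these shares were 99% and 84%. Whether the same shares hold for the counts of the embryos was not tested. In male M-Z- against M+Z+ embryos Cps1 (-1.80) and Otc (-1.52) were not called, while Aass (-0.99) was. Other alternatives were RLE scaling, no filter, scaling to or adjusting for the liver secretory list, a replicate block, fits of fewer groups, of M+Z+ embryos 1 to 3 or 4 and above, of both sexes, each embryo left out, and, added after seeing the data, an embryonic globin covariate. Members and lists were chosen with earlier results of these data known. The genes named are the 32 members, Zfp57, Alb and Afp. Of the other liver enzymes, the hepatocyte transcription factors and the red cell genes, the 3 most abundant and any called in both sexes are also named. Others were named after their values were seen. Of the lists, 2 genes are not reported here and enter no count of members. Promoters were matched by symbol, with a window for 17 of 22 members. Python 3.11.15, pandas 2.3.3 and matplotlib 3.10.9 were used.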

Additional observations from a re-analysis of the deposited data

Results flagged for a closer look

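Among the enzyme genes, Alb and Afp, 72 groups of 4 or 6 embryos were examined for an embryo far from the others of its sex and genotype, and 9 held one. Chance gives about 1 in 20 groups. Male M+Z+ replicate 3 was set apart as the highest of its group for Bhmt (22.7 CPM, next 15.2), Cps1 (22.3, next 13.3), Alb (2778, next 1798) and Afp (3075, next 2354), so the liver markers were high in the same embryo as these enzymes. Female M-Z- replicate 4 was the highest of its group for Cps1 (5.59 CPM, next 4.11), Cbs (5.54, next 3.94) and Gstz1 (47.0, next 40.3) and the lowest for Cth (9.05, next 10.9), and its Alb was the highest of the 4 as well. Gckr was highest in female M-Z- replicate 1 (1.32 CPM, next 0.890).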

How the results depend on the processing

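Shares in brackets are of all genes tested in the same fit, called in the same direction. Of the 17 genes listed by function, in female M-Z- against M+Z+ embryos, 2 were called lower (0.279%), against 1 with counts scaled to the liver secretory genes (0.0711%) or with those as a covariate (0.237%), 0 with the embryonic globin covariate added after seeing the data (0.0771%), 3 with DESeq2 (0.533%), 4 and 1 with M+Z+ embryos numbered 1 to 3 (0.796%) or 4 and above (0.125%), and 6 with both sexes (1.24%). In males 1 was called lower (0.126%), against 4 with no filter (0.154%), 6 with liver scaling (5 of them higher, beside 88.1%), 0 with either covariate (0.042% in each), 6 with DESeq2 (0.384%), 2 with M+Z+ embryos 1 to 3 (the fit without replicate 4, 0.181%), 0 with M+Z+ replicate 4 as the lone M+Z+ embryo, assumed to vary like the other groups (0.0174%), and 6 with both sexes. In M-Z- against M-Z+ embryos, both sexes in 1 fit gave 2 (0.303%) against 0 in females (0.0711%) and 1 in males (0.066%). In males liver scaling gave 4, each of them higher, beside 81.8% of all genes, and either covariate (0.036% lower in each) or a fit of only the compared groups (0.0428%) gave 0. Leaving out each embryo in turn gave 0 to 3 in females and 1 to 9 in males against M+Z+, 0 to 4 in males against M-Z+, and 0 throughout in female M-Z- against M-Z+, in M-Z+ against M+Z+ and between the sexes. The cause of these shifts was not tested.

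In M-Z- against M+Z+ embryos, Cps1, Otc, Ass1, Hgd, Aass, Sult1a1, Alb and Afp were followed through the settings with the 5 genes that head the list. Of these, the following turned sign, all under liver scaling or a covariate. In females the log2 change became 0.0083 for Hgd, 0.0936 for Aass and 0.16 for Afp with liver scaling, 0.11 for Sult1a1 and 0.0401 for Afp with the liver covariate, and 0.20 for Sult1a1 and 0.0124 for Afp with the globin covariate. In males liver scaling gave 0.11 for Ass1, 0.009 for Aass and 0.15 for Afp. Alb and Afp belong to the liver secretory list and are among its most abundant genes, so their values under its scaling or covariate are largely set by that step and nothing is read from them. This scaling itself moved the median of all genes to 0.60 and 1.06.

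Embryos of different genotype share replicate numbers, and their deviations correlated at -0.36 to 0.51 with mixed signs. The labels do not say whether a number stands for anything shared, and these correlations cannot decide it. With a replicate block, 0 were called lower in females (0.107%) and 3 in males (0.18%) in M-Z- against M+Z+ embryos. In females Cps1 was then at -1.75 (adjusted p = 0.205) and Ass1 at -0.78 (adjusted p = 0.129). Depth limits genes near 0.5 CPM, since 3 counts make 0.125 to 0.198 CPM.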

Other observations

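Allele-assigned reads of Hpd, Aldh8a1 and Mtarc1 were too few for the allelic test and are given as sums over the M+Z+ embryos of a sex. Hpd had 34 maternal and 63 paternal reads in females and 37 and 44 in males. Aldh8a1 had 33 and 63 in females and 26 and 52 in males. Mtarc1 had 91 and 70 in females and 62 and 43 in males, so in sum its maternal reads were the more numerous in both sexes. By embryo its P-score ran from -0.452 to 0.147 in female and from -0.157 to 0.0263 in male M+Z+ embryos, on both sides of even shares.

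Genes of red cells were listed as well. With both sexes in 1 fit, 6 of this list were lower and 3 higher in M-Z- against M+Z+ embryos, the higher ones being the embryonic globins Hbb-y (log2 change 1.39), Hbb-bh1 (1.89) and Hba-x (1.82). None of the list was called by edgeR in either sex alone.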
